A study of Drosophila melanogaster with 3 samples.

Results

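Chromosome 4 of Drosophila melanogaster, the small dot chromosome, carried 361 of the 65063 sites at which peaks of the forkhead transcription factor Jumeau (jumu) were listed on the 6 chromosome arms 2L, 2R, 3L, 3R, 4 and X. All peaks on chromosome 4 were taken from the 5 peak lists in genome build dm6, and summits within 100 bp of each other were merged into 1 site. The chromosome held 14 of the 3845 peaks of the optimal list, which the irreproducible discovery rate procedure had thresholded, and 95 of the 29812 peaks of the list of the pooled replicates. The relaxed lists of peaks and background held 179, 47 and 208 chromosome 4 peaks in replicates 1, 2 and 3, each of 30000. Of the 361 sites, 14 held an optimal peak, 81 held a pooled but no optimal peak, and 266 were in replicate lists alone.

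The assay was chromatin immunoprecipitation followed by sequencing (ChIP-seq) with an antibody against GFP. The 1 group consisted of 3 biological replicates of whole embryos, 0 to 24 hours old and of both sexes, from the fly line jumu-MiMIC-GFP, in which an intronic exon encoding eGFP makes the Jumeau protein a GFP fusion. Chromatin was sonicated to 200 to 800 bp. The embryos were pools of all cell types and stages, and a control sample was not used here.

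The dot chromosome is largely packaged as heterochromatin: its genes lie among transposable elements, and heterochromatin protein 1a (HP1a) and the chromosome-specific protein POF cover much of it, yet most of its genes are expressed. Jumeau is a forkhead factor that acts in heart, blood and neural development, and loss of the gene modifies position-effect variegation, the silencing of genes placed near heterochromatin. In the assembly used here chromosome 4 was 1348131 bp long, 1.01% of the length of the 6 arms. It carried 80 protein-coding and 38 other genes with 183 start sites, 136 start sites per Mb against 177 per Mb on the other 5 arms. Annotated transposable elements, 566 in number, covered 24.8% of chromosome 4 and 5.74% of the other arms, and 35.3% and 42.2% of the bases were G or C.

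The sequences below are the windows reaching 50 bp to each side of an optimal summit that held one of 2 groups of words, and the window of the strongest of the optimal peaks listed in all replicates. All are read from the plus strand of chromosome 4 in dm6 (RefSeq sequence). Capitals mark the forkhead core TAAACA and the word CGATA, on either strand, so that TGTTTA and TATCG are marked too. CGATA is part of the longer palindrome TATCGATA, which the DNA replication-related element factor and the insulator protein BEAF-32 are known to recognise. The windows were chr4:67222-67322 before RpS3A, chr4:482763-482863 at an internal start site of Asator, chr4:486676-486776 in an Asator intron, chr4:696896-696996 before ey, chr4:867026-867126 before Gyf and chr4:424766-424866 between genes near lncRNA:CR43437. At Hcf, where the window reaches into the 5′ UTR, the middle 29 bases at chr4:359918-359946 are shown.
RpS3A: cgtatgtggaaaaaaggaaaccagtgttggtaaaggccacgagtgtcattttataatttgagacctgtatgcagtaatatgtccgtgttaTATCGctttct
Hcf: caatctatgTATCGATAtttttcttctgt
Asator start site: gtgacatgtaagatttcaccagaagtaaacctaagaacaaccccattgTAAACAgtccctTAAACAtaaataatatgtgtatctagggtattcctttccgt
Asator intron: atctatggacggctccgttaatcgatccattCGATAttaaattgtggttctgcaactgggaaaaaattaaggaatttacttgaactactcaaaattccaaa
ey: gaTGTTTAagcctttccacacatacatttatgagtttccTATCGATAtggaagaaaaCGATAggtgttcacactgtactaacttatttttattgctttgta
Gyf: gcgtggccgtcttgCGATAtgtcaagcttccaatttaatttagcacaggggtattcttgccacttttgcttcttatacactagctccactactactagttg
lncRNA:CR43437: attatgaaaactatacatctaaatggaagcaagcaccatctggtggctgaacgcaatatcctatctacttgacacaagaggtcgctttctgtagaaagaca

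CGATA was present in 5 of the 14 optimal windows of chromosome 4 (35.7%, 95% Wilson interval 16.3 to 61.2%), those of RpS3A, Hcf, the Asator intron, ey and Gyf, against 20.4% of the 3831 optimal windows of the other arms. Of all windows of that length tiled along chromosome 4, 13.3% held it. The palindrome TATCGATA, within which CGATA occurs on both strands, was in 2 of 14 windows (14.3%, 4.01 to 39.9%), at Hcf and ey, against 3.05% of optimal windows elsewhere and 0.896% of the tiled windows of chromosome 4. TAAACA was in 2 of 14 windows (14.3%), at the Asator start site and ey, against 13.4% elsewhere and 11.6% of the tiled windows. The longer GTAAACA was in 1 of 14 windows (7.14%, 1.27 to 31.5%), at the Asator start site, against 3.55% elsewhere and 2.15% of the tiled windows. Other words searched were GACGC (a further forkhead word), GAGAG (bound by GAGA factor), GGTCACACT (a core promoter motif) and CAGCTG (an E-box). Each was in 0 of 14 windows, which allows a share of up to 21.4%, and in 6.60%, 10.7%, 1.28% and 4.41% of the optimal windows of the other arms, in that order. The median GC content was 34.7% in the 14 windows and 36.6% in the optimal windows of the other arms. Intervals and limits of this kind cover counting error only.

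Replicate 2 stood apart from replicates 1 and 3 on this chromosome. Its list held 47 chromosome 4 peaks, 0.243 times the mean of replicates 1 and 3, whereas the same ratio was 0.887 on the X and between 1.00 and 1.07 on 2L, 2R, 3L and 3R. The shortfall ran through the whole list: each block of 5000 ranks held 5 to 10 chromosome 4 peaks in replicate 2, against 23 to 33 in replicate 1 and 19 to 41 in replicate 3. In the dm3 lists the counts were 176, 41 and 206 in replicates 1, 2 and 3. Replicate 2 was therefore left out in turn from the results that rest on it. The cause of the difference was not tested. The pooled and optimal lists were made with replicate 2 included.

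**Figure D1:**
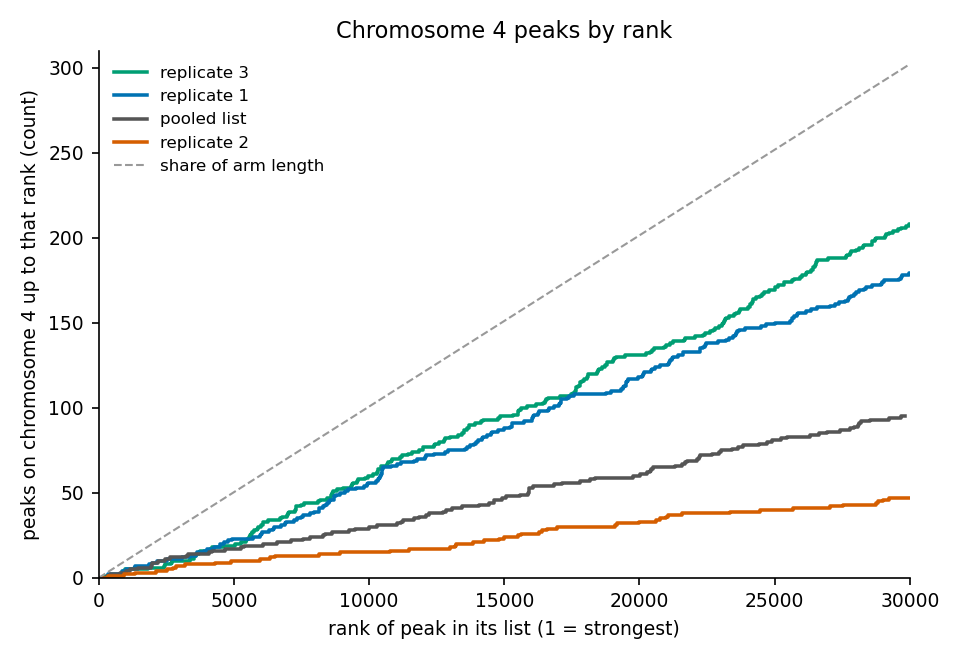
Number of chromosome 4 peaks (vertical axis, count) among the strongest peaks of each list up to a given rank (horizontal axis, 1 is the strongest). Lines are replicate 3, replicate 1, the pooled list and replicate 2, and the dashed line is the share of arm length. The replicate 2 line ends at 47 peaks, below the pooled line at 95 and the lines of replicates 1 and 3 at 179 and 208.

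The density of peaks on chromosome 4 was 133, 34.9 and 154 per Mb in replicates 1, 2 and 3 (mean 107 ± 63.7, SD, n = 3), against 225 ± 0.648 per Mb on the other arms. Each replicate list holds 30000 peaks, so the spread on the other arms follows from the chromosome 4 counts and does not measure reproducibility. The density on chromosome 4 was lower in 3 of 3 replicates. With 3 replicates the 2-sided exact sign-flip permutation test cannot give a p below 0.25, and it gave p = 0.25. Without replicate 2 the mean was 144 per Mb. Among the strongest 10000 peaks of each list, chromosome 4 had 56, 15 and 60.

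The 14 optimal peaks ranked from 305 to 3318 among 3845, and their median signal in the pooled list was 179, against 181 for the optimal peaks of the other arms. The signal is the value of the authors' peak caller. To compare replicates, each peak's signal was divided by the median over the optimal peaks matched in that replicate, 74.8, 58.1 and 54.5 in replicates 1, 2 and 3, so that a relative signal of 1 is the typical optimal peak. A replicate peak was matched when its summit lay within 100 bp of the optimal summit.

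The strongest optimal peak of the chromosome, chr4:1113203-1113460, had a pooled signal of 489 and rank 305. It lay where the 3′ UTRs of 2 convergent genes overlap, those of Cals, which encodes the synaptic cadherin-like protein Calsyntenin, and sv (shaven), which encodes the fly Pax2 factor. Its summit was 9657 bp inside Cals from the nearest start site. Signals were 186 in replicate 1 and 161 in replicate 3, 2.49 and 2.95 on the relative scale, and replicate 2 listed no summit closer than 29852 bp. It was high in both lists that held it. Among the 304 optimal peaks of the other arms with a pooled signal at least as high, 0 lacked a replicate 2 summit within 100 bp, which allows a share of up to 0.987%.

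The next strongest, chr4:424691-424912, was intergenic, 1251 bp upstream of lncRNA:CR43437, a long non-coding RNA gene. Its pooled signal was 418 (rank 412) and its signals in replicates 1, 2 and 3 were 190, 147 and 81.5. The relative signals of 2.55, 2.54 and 1.496 were all above the typical optimal peak. This was the strongest chromosome 4 peak in both replicates 1 and 2.

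Of the peaks near regulators of transcription, the one inside Sox102F, which encodes the fly SoxD factor, was held by all replicates. It lay at chr4:807351-807770, 214 bp upstream of an internal start site, with signals of 111, 70.7 and 78.7 in replicates 1, 2 and 3. Relative to each replicate's median these were 1.49, 1.22 and 1.45 (mean 1.38 ± 0.146, SD, n = 3), all above the typical optimal peak. The peak at chr4:497845-497962 was intergenic between Asator and zfh2, a zinc finger homeodomain factor of wing development, 3907 bp upstream of the zfh2 start. Its signals were 122, 87.5 and 90.3, and its relative signals of 1.63, 1.51 and 1.66 (mean 1.60 ± 0.0813) were the most even of the 7 peaks in all lists. The peak at chr4:696736-697155 lay between ey (eyeless), the Pax6 factor of eye development, and the gene myo, which encodes the TGF-β family ligand Myoglianin. It was 743 bp upstream of ey, with signals of 76.2, 39.8 and 48.3 and relative signals of 1.02, 0.685 and 0.887. The peak at chr4:982780-983199 was 4501 bp upstream of fuss, a member of the Ski/Sno corepressor family. Its signals were 119, 42.7 and 83.1, so the relative signal in replicate 2 (0.735) was below that in replicates 1 (1.60) and 3 (1.52). At Hcf, which encodes the chromatin cofactor Host cell factor, the peak chr4:359722-360141 had its summit 6 bp from the start site. It had signals of 49.1 and 30.6 in replicates 1 and 3 (relative 0.657 and 0.562) and no replicate 2 summit closer than 17367 bp.

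Asator, which encodes a tau-tubulin kinase family protein of the spindle matrix, was the only gene of the chromosome nearest to more than 1 optimal peak. Its 3 peaks and the zfh2 peak had their summits within 15090 bp, in the 100 kb from 400 to 500 kb that held 5 of the 14 optimal peaks, 21 of the 95 pooled peaks and 56 of the 361 sites, but 16 of the 183 start sites. The peak upstream of the first start, chr4:489328-489747, was in all lists, with signals of 95.3, 46.6 and 35.5. The intronic peak chr4:486516-486935 had signals of 62.6 and 56.1 in replicates 1 and 3, and the one at the internal start site, chr4:482603-483022, had 43.3 and 38.7. Replicate 2 listed neither, and its nearest summits were 1221 and 5134 bp away. Of the 3 Asator peaks, then, 1 was in all lists. Another signalling gene with a peak was PlexA, the receptor of class 1 semaphorins in axon guidance. At chr4:1027016-1027435, 125 bp upstream of a start site, signals were 42.0, 43.8 and 47.6 in replicates 1, 2 and 3. PlexA was the only optimal peak of the chromosome whose relative signal was higher in replicate 2 (0.755) than in replicate 1 (0.561).

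The optimal peaks of the housekeeping genes RpS3A and gw, and that of Gyf, were missing from replicate 2. RpS3A encodes a protein of the small ribosomal subunit, and its peak chr4:67062-67481 was 65 bp upstream of the start site, with signals of 73.6 and 22.1 in replicates 1 and 3. The replicate 3 value was 0.405 of the typical optimal peak, the lowest relative signal among the 14 peaks. The promoter peak of gw (gawky), a core protein of microRNA silencing, at chr4:659880-660299, had signals of 94.2 and 45.3 (relative 1.26 and 0.832). Its summit lay inside gw, 107 bp upstream of an internal start site. Gyf encodes a GYF domain protein of translational control, and its promoter peak chr4:866866-867285 had signals of 51.0 and 38.2 (relative 0.682 and 0.701). The nearest replicate 2 summits were 64075, 18328 and 53740 bp away from RpS3A, gw and Gyf.

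**Figure D2:**
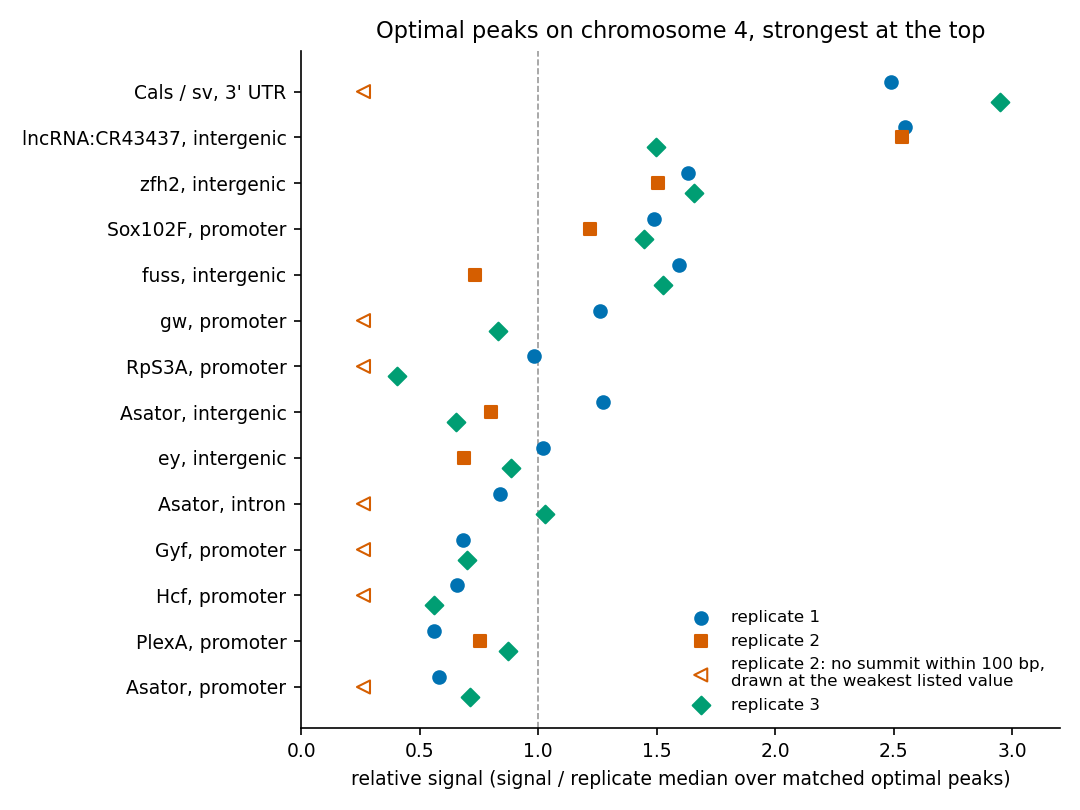
Relative signal (horizontal axis, peak signal divided by the replicate's median over matched optimal peaks) of the 14 optimal peaks of chromosome 4, named by the nearest gene and location, from the highest pooled signal at the top. Circles, squares and diamonds are replicates 1, 2 and 3, and open triangles are the 7 peaks with no replicate 2 summit within 100 bp, drawn at that list's weakest relative signal of 0.263. The Cals and sv peak stands at 2.49 and 2.95 in replicates 1 and 3 while replicate 2 lists none.

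The median relative signal of the matched chromosome 4 peaks was 1.14, 0.802 and 0.880 in replicates 1, 2 and 3 (mean 0.940 ± 0.177, SD, n = 3), against 1.00 on the other arms. The exact sign-flip permutation test of the log2 value gave p = 0.75 (2-sided, smallest possible 0.25), and the value was lower in 2 of 3 replicates. Without replicate 2 the mean was 1.01. These medians rest on 14, 7 and 14 peaks. The 7 peaks that replicate 2 did not list have no value there and were left out. Its median thus describes listed peaks only, and the test cannot compare all 14 peaks across replicates. The value of 1.00 on the other arms follows from the divisor, which their peaks largely set. Over the 7 peaks matched in all 3 replicates the medians were 1.49, 0.802 and 1.45 (mean 1.25 ± 0.385), against 1.02 ± 0.0147 on the other arms, so over these peaks chromosome 4 was higher in 2 of 3 replicates (exact sign-flip permutation p = 0.5). The direction of the difference thus depended on which peaks were included.

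Replicates 1 and 3 each matched all 14 optimal peaks of chromosome 4, and replicate 2 matched 7 (50%, 26.8 to 73.2%), against 97.9%, 94.5% and 95.4% of optimal peaks of the other arms in replicates 1, 2 and 3. All 3 replicates matched 7 of 14, where the share over all arms was 88.7%. The lowest such share on any other arm was 87.4%, on 3R. Of the 7 chromosome 4 peaks in all lists, 2 were promoter and 5 intergenic. Of the 7 missing from replicate 2, 5 were promoter, 1 intronic and 1 in a 3′ UTR. The location of optimal peaks missing from replicate 2 was not counted on the other arms. Over all listed peaks of the other arms, a different measure, the promoter share was 32.0%, 23.6% and 31.3% in replicates 1, 2 and 3. The promoter peaks of chromosome 4 missing from replicate 2 had relative signals of 0.405 to 1.26 in the other replicates. The weakest listed relative signal of replicate 2 was 0.263. Relative signals of single peaks differed between replicates, and why replicate 2 lacked these peaks was not tested.

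By location, 7 of the 14 optimal summits were promoter, within 500 bp of a start site (50%, 26.8 to 73.2%), against 57.5% on the other arms. With a limit of 250 or 1000 bp the share was 50% or 71.4%, and the difference turned to 1.76 or 4.53 percentage points above the other arms. With protein-coding start sites only it was 50%, a difference of -4.95 points. In the stronger part of the optimal list it was 33.3% (2 of 6), a difference of -27.1 points. The 7 promoter summits were 6 to 214 bp from the start, with a median of 93 bp. Another 5 were intergenic (35.7%, 16.3 to 61.2%), against 11.3% elsewhere, and 1 was intronic (7.14%, 1.27 to 31.5%), against 28.8%. Intergenic peaks at Asator and ey were 544 and 743 bp upstream of a start site, and the intronic peak was 693 bp upstream. These shares thus depend on the 500 bp limit. In coding sequence there were 0 of 14 and 0.496% elsewhere. Of the 14, 13 were upstream of their nearest start site, a share that was not counted on the other arms. None lay inside an annotated transposable element (0 of 14, which allows up to 21.4%, against 0.287% elsewhere), and the nearest element was 133 to 2661 bp away, with a median of 1688 bp. The spacing of neighbouring optimal summits ran from 2812 to 292660 bp, with a median of 59520 bp. From 1300 kb to the end, where transposable elements cover 95.4% of the bases, no list had a peak.

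Of the 80 protein-coding genes of chromosome 4, 9 had an optimal peak whose summit was at most 1 kb from a start site (11.3%, 6.03 to 20.02%), where the share over all arms was 22.4%. Of the regulators of transcription and chromatin, 3 of 18 had one (Hcf, ey and Sox102F), and of the signalling genes 3 of 14 (Asator, PlexA and myo, which shares the peak of ey). Of the housekeeping genes 2 of 11 had one (RpS3A and gw), of the other genes 1 of 26 (Gyf), and of the neuronal, muscle and membrane genes 0 of 11, which allows up to 27.3%.

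A pooled summit was that close in 31 of the 80 genes (38.8%, 28.8 to 49.7%), where the share over all arms was 63.4%. Beyond those with an optimal peak these were, among transcription genes, pan (the Wnt pathway TCF factor), dati, zfh2, Taf3 and MED26, with pooled signals of 67.8, 74.3, 53.4, 48.3 and 51.5. Among signalling genes they were PlexB (89.2), CaMKII (40.2) and Ephrin (39.95). The housekeeping genes ATPsynbeta, a subunit of mitochondrial ATP synthase, Slip1, Pur-alpha, ND-49 and Zip102B had 81.9, 52.7, 50.5, 39.95 and 39.1, and the membrane and muscle genes Zyx (zyxin) and Ekar (a kainate-type glutamate receptor) 90.5 and 36.1. All were below the weakest optimal signal of 112. Each optimal peak of chromosome 4 had the same rank by signal in the pooled list, so the optimal list held the strongest pooled peaks down to those ranks. Lower values outside it are thus no separate result. ATPsynbeta shared its summit with CG11076, and Zyx with apolpp, so the gene that each peak belongs to cannot be told apart by distance.

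In the replicate lists, 54, 10 and 50 of the 80 genes had a summit that close in replicates 1, 2 and 3, where the shares over all arms were 63.9%, 59.6% and 63.1%. As shares these were 67.5% (56.6 to 76.8%), 12.5% (6.93 to 21.5%) and 62.5% (51.6 to 72.3%) on chromosome 4, against 63.8%, 59.9% and 63.1% of the genes of the other arms. In replicates 1 and 3 the interval included the share of the other arms, and in replicate 2 it lay below it. Replicates 1 and 3 both listed 45 genes (56.3%, 45.3 to 66.6%), against 54.9% of the genes of the other arms and 54.9% over all arms. All 3 lists held 10 (12.5%, 6.93 to 21.5%), against 44.8% of the genes of the other arms and 44.6% over all arms. These 10 were Asator, ATPsynbeta, CG11076, CG32017, dati, ey, Kif3C, myo, PlexA and Sox102F. No replicate list held a summit near 21 of the 80 genes (26.3%, 17.9 to 36.8%), against 20.9% of the genes of the other arms and 20.9% over all arms. They were 5 of the 18 regulators of transcription (sv, onecut, Mitf, NfI and the forkhead gene fd102C), 3 of the 14 signalling genes, 4 of the 11 neuronal, muscle and membrane genes, 1 of the 11 housekeeping genes and 8 of the 26 others.

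**Figure D3:**
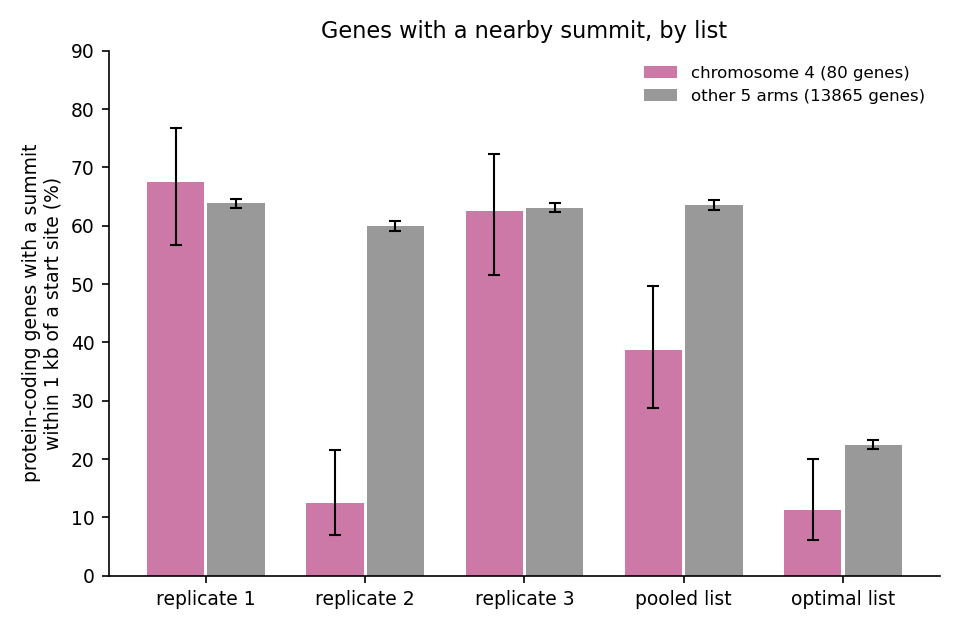
Share of protein-coding genes whose start sites had a summit at most 1 kb away (vertical axis, percent) in each peak list, for the 80 genes of chromosome 4 (left bar of each pair) and the 13865 genes of the other arms (right bar), with 95% Wilson intervals. Chromosome 4 stood at 67.5% and 62.5% in replicates 1 and 3 and at 12.5% in replicate 2.

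Across all 361 sites, 15 were in all 3 replicate lists (4.16%, 2.53 to 6.74%), against 11.7% of the 64702 sites of the other arms, where the share over all arms was 11.6%. Another 55 were in 2 lists, 279 in 1 and 12 in the pooled list alone. Of the 55, 47 were in replicates 1 and 3, 5 in 1 and 2, and 3 in 2 and 3. Of the 62 sites that replicates 1 and 3 shared, replicate 2 listed 15 (24.2%, 15.3 to 36.2%), against 60.9% of such sites on the other arms. Replicate 1 listed 15 of the 18 sites shared by replicates 2 and 3 (83.3%, 60.8 to 94.2%), against 71.1%, and replicate 3 listed 15 of the 20 shared by replicates 1 and 2 (75.0%, 53.1 to 88.8%), against 67.4%. Of the 47 sites that replicate 2 listed, 24 were in no other replicate list, against 15546 of 29826 on the other arms. With replicate 2 left out, 62 of 342 sites (18.1%, 14.4 to 22.6%) were in both lists, against 23.0% on the other arms and 23.0% over all arms.

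Among pooled sites outside the optimal list, 7 of 81 were in all replicate lists (8.64%, 4.25 to 16.8%), against 15.5% of such sites on the other arms. Their nearest start sites were those of fuss, Sox102F, CG11076, dati, lgs (legless, the BCL9 coactivator of Wnt signalling), JYalpha and Asator. The strongest of the 81 was intergenic, at chr4:980148-980567, 1869 bp upstream of fuss and inside an INE-1 element, with a pooled signal of 107 and signals of 45.2, 34.0 and 20.8 in replicates 1, 2 and 3. At CG11076 and ATPsynbeta (chr4:1030877-1031296) the signals were 31.2, 52.6 and 21.7, so that here replicate 2 had the highest, also on the relative scale (0.906 against 0.417 and 0.398). The peak at chr4:807558-807977, a second one inside Sox102F, had 46.4, 19.9 and 24.2. Its interval overlapped the optimal Sox102F peak chr4:807351-807770, so it need not mark separate binding. The one at chr4:395848-396267 before dati, a zinc finger gene, had 23.1, 18.2 and 37.3. The remaining ones of the 10 strongest were missing from at least 1 replicate. They lay at promoters of gw (pooled signal 106), apolpp and Zyx (90.5) and PlexB (89.2), 5690 bp from the microRNA gene mir-9385 (77.8), in a 1360 element within lncRNA:CR46488 (71.6) and in coding sequence of dati (70.3). Of the 266 sites in replicate lists alone, 1 was in all 3 (0.376%, 0.0664 to 2.10%), against 0.0796% on the other arms. It lay inside CG32017, 94 bp upstream of an internal start site of that gene, with signals of 27.9, 18.7 and 13.2.

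Sites inside a gene were most numerous in zfh2 (16 sites), dati (13), Asator (12), Sox102F (11) and ey (10), genes of 39065, 19966, 19586, 33958 and 23485 bp. In 13 protein-coding genes there was no site, and such genes were not counted on the other arms. Promoter sites made up 74 of the 279 sites in 1 list (26.5%, 21.7 to 32.0%), 27 of 55 in 2 lists (49.1%, 36.4 to 61.9%) and 6 of 15 in 3 lists (40.0%, 19.8 to 64.3%). Shares by number of lists were not counted on the other arms. There, 57.5% of optimal peaks were promoter, against 25.6% of pooled peaks outside the optimal list.

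Replicate peaks more than 100 bp from any optimal summit were promoter in 40.6%, 17.5% and 28.4% of cases in replicates 1, 2 and 3 (mean 28.8 ± 11.6%, SD, n = 3), against 28.3%, 19.0% and 27.7% on the other arms (25.0 ± 5.22%). With a promoter limit of 1000 bp the difference was -2.01 percentage points, and without replicate 1 it was -0.384. The difference was positive in 2 of 3 replicates (exact sign-flip permutation p = 0.75, 2-sided). Coding sequence held 14.6%, 35.0% and 25.3% of these peaks on chromosome 4 (mean 24.9 ± 10.2%), against 24.9 ± 3.24% on the other arms (exact sign-flip permutation p = 1). In both location classes replicates 1 and 2 were the extremes.

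Inside annotated transposable elements lay 12.1%, 22.5% and 16.0% of these weaker peaks in replicates 1, 2 and 3 (mean 16.9 ± 5.25%), against 0.377 ± 0.125% on the other arms. The share was higher on chromosome 4 in 3 of 3 replicates, and the exact sign-flip permutation test gave p = 0.25, the smallest it can give. Without replicate 2 the mean was 14.1%. Beside these shares, transposable elements cover 24.8% of chromosome 4 and 5.74% of the other arms. On both, the share of peaks was below the share of bases, and relative to the bases the gap was larger on the other arms. How the authors treated reads that match several places was not stated in these sources. Of the 361 sites, 55 were inside an element: 27 in INE-1 alone, a short element abundant on the dot chromosome, 8 in 1360, a DNA transposon, and 7 in the retrotransposon Cr1a alone. Most were in 1 replicate list: 49 of the 279 sites in 1 list (17.6%, 13.6 to 22.5%), 4 of 55 in 2 lists (7.27%, 2.86 to 17.3%) and 1 of 15 in 3 lists (6.67%, 1.19 to 29.8%), the INE-1 site near fuss. The remaining 1 was in the pooled list alone.

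**Figure D4:**
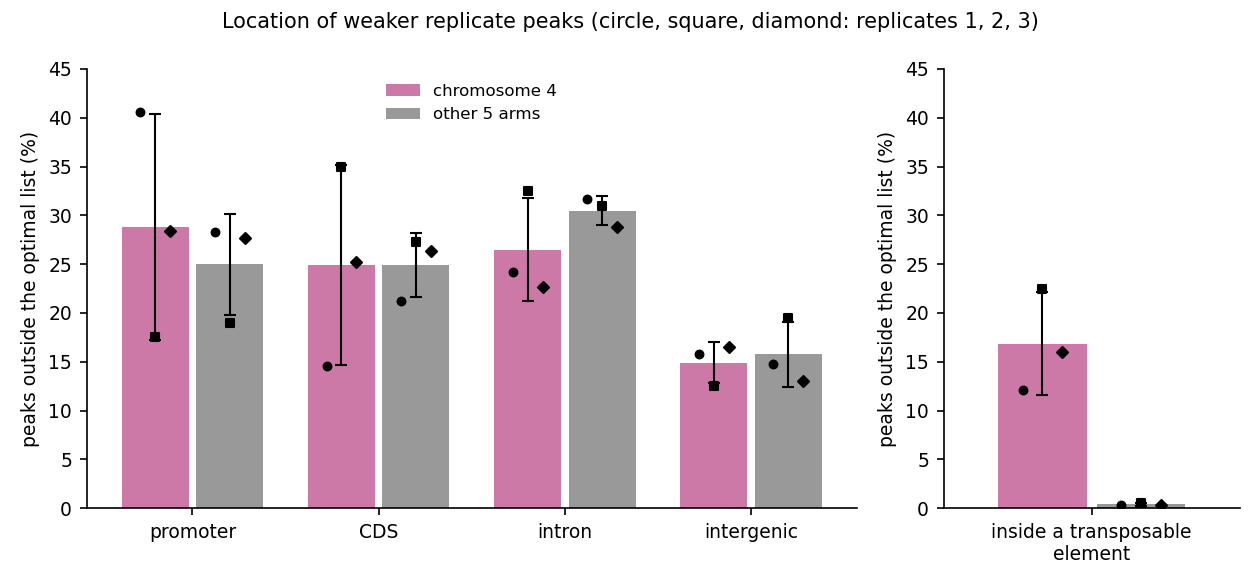
Share of replicate peaks outside the optimal list (vertical axes, percent) that lie at promoters, in coding sequence (CDS), in introns or between genes (left panel) and inside annotated transposable elements (right panel). Bars are means and error bars SDs over 3 replicates, with chromosome 4 left of the other arms. The right panel shows 16.9% on chromosome 4 against 0.377% on the other arms, and every chromosome 4 replicate is above every other-arm value.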

How the data were processed

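Peak lists from ChIP-seq of 3 biological replicates in 1 group were used. Per the readme files, the authors deposited a relaxed list for each replicate and for the pooled replicates, and an optimal list thresholded by the irreproducible discovery rate procedure, in builds dm6 and dm3. The caller, its settings and the depth behind each peak are not given in these sources. The signal of a peak is the deposited value of the authors' caller. The deposited −log10 q value was not used.

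Coordinates are 1-based (dm6). The Ensembl release 115 annotation of BDGP6.54, the same assembly, gave gene models and transposable elements. A summit within 500 bp of a start site was promoter, and otherwise 5′ UTR, coding sequence, 3′ UTR, other exon, intron or intergenic, in that order. Words were searched on both strands. Shares have 95% Wilson intervals. Comparisons over replicates used a 2-sided exact sign-flip permutation test. The labels do not say what separated the replicates. The p therefore reflects only how consistent in sign and size the differences were over these samples.

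Every site with an optimal peak, the 10 strongest other pooled sites, and replicate-only sites in all lists were named, with gene list members that had a summit. Other sites and genes were named after their values were seen. The members and gene lists were chosen with earlier results of these data known. Thd1 of the housekeeping list was not matched. Alternatives were other merging, matching and promoter distances, protein-coding start sites, the strongest peaks, dm3 lists and each replicate left out. The code was tested on simulated data. Python 3.11.15, numpy 2.4.6, pandas 2.3.3, scipy 1.17.1 and matplotlib 3.10.9 were used.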

Additional observations from a re-analysis of the deposited data

How the results depend on the processing

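The count of 361 sites was 386, 328, 287 and 352 with merging within 50 bp, within 200 bp, by overlapping intervals and in the dm3 lists, and 232 to 342 with 1 replicate left out. The 15 sites in all replicate lists were 7 among the strongest 10000 peaks of each replicate, and 17 to 62 in both remaining lists with 1 replicate left out. The highest, 62, was without replicate 2, where the share in every list was 18.1% in place of 4.16%, and 45 in place of 10 protein-coding genes had a summit in every list. The 9 genes with an optimal summit were 18 within 5 kb and 2 with the stronger part of the optimal list, which holds fewer peaks. The promoter share of weaker peaks, 28.8%, was 37.4% within 1000 bp, where its difference from the other arms was -2.01 percentage points, and 22.9 to 34.5% with 1 replicate left out. Without replicate 1 it was 22.9% with a difference of -0.384 points. The mean relative signal of matched optimal peaks, 0.940, was 0.841 to 1.01 with 1 replicate left out. Without replicate 2 the log2 value turned from -0.10 to above 0. The causes of these shifts were not tested. The chromosome 4 share of replicate peaks, 0.482%, was 0.377 to 0.645%, the peak density 83.8 to 144 per Mb and the transposable element share of weaker peaks 14.1 to 19.2% with 1 replicate left out, each on the same side of its comparison. The leave-one-out values for density, transposable elements, shares in every list and genes in every list were added after seeing the data. The unknown depth limits all statements on absent peaks. No paired analysis was possible because there was only 1 group, so that no groups could be paired by replicate number. Differences between chromosome 4 and the other arms were taken within each replicate.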
